A study of Mus musculus with 4 samples.

Results

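The Notch receptors, ligands and targets described here are 10 mouse genes: the 4 receptor genes Notch1, Notch2, Notch3 and Notch4, the 4 ligand genes Jag1, Jag2, Dll1 and Dll4, and the 2 target genes Hes1 and Hey1. They were chosen by gene name, and their probes were found through the RefSeq accession that the array files give for each probe. All 10 were on the array, with 12 of its 55681 probes, among 21154 genes that could be named in this way. RNA was measured in thymospheres, which are free-floating aggregates that dissociated thymus cells form in dishes to which they cannot attach. The adult group came from the thymus of C57Bl6/N mice aged 5 to 6 weeks and the embryonic group from C57Bl6/N embryos at embryonic day 14.5. Both groups were grown for 7 days in one medium with B27 supplement, hydrocortisone, insulin, EGF and bFGF, with fresh medium on day 5, and the labels name no genetic change in either. Each group had 2 samples with 1 array each, and all 4 arrays lay on 1 slide, where position and group cannot be told apart. The labels do not say whether a group's 2 samples were biological or technical replicates, so every p-value rests on a spread that may be technical.

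Notch receptors are membrane proteins that bind ligands of the Jagged and Delta families on neighbouring cells. Binding lets proteases cut the receptor, and its inner part moves to the nucleus, where it joins the DNA-binding protein RBPJ and switches on genes such as those of the Hes and Hey families, which encode repressors. In the thymus, Dll4 on epithelial cells engages Notch1 on blood-borne progenitors and directs them to the T cell fate. Notch signals also act in the epithelium itself, in blood vessels and in the mural cells around them.

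Embryonic spheres had more transcript of Notch2, Jag2 and Dll1 than adult spheres, while no member passed the test in the other direction. For Jag2 the embryonic level was at least 5.44-fold the adult level in the scaling used here (adjusted p = 0.00728). This bound is set by the dimmest detected adult signals, because neither adult array showed Jag2 above background, and 2 other processings gave smaller folds. Notch2 stood 1.86 log2 units higher (SE 0.36, adjusted p = 0.0133) and Dll1 2.09 higher (SE 0.41, adjusted p = 0.0138). Dll1 was above background on only 1 adult array, so its fitted size rests in part on signal at background. With no filter on dim probes neither Notch2 (adjusted p = 0.0539) nor Dll1 (adjusted p = 0.0532) was called. Notch1, Notch3, Notch4, Jag1, Hes1 and Hey1 were tested and did not pass, and Dll4 was too dim to be tested. These values come from limma, fitted over 13660 genes with Benjamini-Hochberg adjustment, a threshold of 0.05 and 2 arrays in each group.

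These 3 calls among 9 tested members are read against a background in which most genes were shifted. Of all genes tested, 53.7% were called, 36.2% as higher and 17.5% as lower in embryonic spheres. The 3 of 9 members called higher thus made a share close to that of all genes. The median log2 fold change of all tested genes was 0.80, and that of the 9 members was 0.85. Signed log2 fold changes below take the embryonic value minus the adult one, and 0.80 is their reference. Of all calls 67.4% were higher in embryonic spheres in the scaling used here, 27.4% when the tested genes were centred to a median of 0, and 86.2% when all probes were. After centring on the tested genes 7.66% of genes were called higher and 20.3% lower. Jag2 (3.77, adjusted p = 0.00598) and Dll1 (1.43, adjusted p = 0.0443) were then still higher, Notch2 was no longer called (1.20, adjusted p = 0.0688) and Notch1 was called lower (-1.88, adjusted p = 0.0458). Leaving out an adult array, whichever of the pair it was, left 0 genes called in limma, with 6453 genes below an unadjusted p of 0.05 without adult array 1 and 5526 without adult array 2. The log2 fold changes of Jag2, Notch2 and Dll1 were then 4.17, 1.55 and 2.50 without adult array 1, and 4.68, 2.17 and 1.69 without adult array 2.

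Start-site sequence was looked at for the 3 genes that were higher together, since these are the regulatory sequences nearest to the finding. RefSeq's promoter table (GRCm38.p6) held 8 of the 10 genes in 9 windows, here cut to the 250 bases before the start site and written 5′ to 3′ on the gene's strand. Capitals mark each CpG, the C followed by G at which mammalian DNA can be methylated. The Jag2 window is chr12:112929496-112929745 on the minus strand, the Notch2 window chr3:98013288-98013537 on the plus strand, and the Dll1 window, the outer of its 2 start sites, chr17:15376933-15377182 on the minus strand.
Jag2: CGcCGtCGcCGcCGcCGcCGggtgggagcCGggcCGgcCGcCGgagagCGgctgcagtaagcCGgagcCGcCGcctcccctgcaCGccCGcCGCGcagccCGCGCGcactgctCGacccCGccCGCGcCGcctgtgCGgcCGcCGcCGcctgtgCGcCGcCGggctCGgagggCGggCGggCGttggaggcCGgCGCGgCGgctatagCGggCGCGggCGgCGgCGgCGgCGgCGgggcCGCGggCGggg
Notch2: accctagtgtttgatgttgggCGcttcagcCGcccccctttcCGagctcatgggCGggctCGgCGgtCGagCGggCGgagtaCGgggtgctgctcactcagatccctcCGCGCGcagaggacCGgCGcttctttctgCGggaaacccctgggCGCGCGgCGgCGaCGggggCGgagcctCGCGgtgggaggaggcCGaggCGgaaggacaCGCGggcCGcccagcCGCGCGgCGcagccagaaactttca
Dll1: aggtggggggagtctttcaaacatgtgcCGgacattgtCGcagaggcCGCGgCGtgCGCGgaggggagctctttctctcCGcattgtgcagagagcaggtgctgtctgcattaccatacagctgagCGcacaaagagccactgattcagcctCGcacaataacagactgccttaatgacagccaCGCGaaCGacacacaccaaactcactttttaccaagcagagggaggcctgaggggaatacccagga

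The Jag2 window held 54 CpGs, more than 99.98% of the 32851 windows in the table, where the median was 6. Notch2 had 34, more than 96.5% of windows, and the 2 Dll1 windows had 13 and 21. Among the members that were not called, the CpG count was 16 for Notch1, 17 for Notch3, 20 for Jag1 and 4 for Notch4, and it was 14 for Dll4. The 2 target genes, Hes1 and Hey1, had no window in the table and were not searched. The letters GTGGGAA, the consensus bound by RBPJ, were searched on both strands. They occurred in none of the 9 windows of receptor and ligand genes and in 5.42% of all windows. The E-box CACGTG was in none of the 9 and in 6.02% of all. The N-box CACNAG, to which Hes repressors bind, was in 4 of the 9 windows, those of Notch1, Notch2, Notch3 and Dll4, and in 36.7% of all. Such matches describe letters in these windows and do not show that a factor binds.

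Signal is given below as a multiple of the array's 75th percentile of spot signal, so that 1 means a spot as bright as that percentile. Levels of different probes are not compared, because probes differ in how strongly they bind. The summed signals of marker lists below are therefore weighted to their brightest probes and are no measure of cell content. A probe counted as detected if Feature Extraction, the scanner software, marked most of its spots as well above background. By that measure all 4 receptors and Jag1 were detected on every array, and 1 of these 5 was called, where 46.2% of all genes detected on every array were called. With such genes fitted alone, 3 of the 5 were called, Notch2 and Notch3 as higher and Notch1 as lower, against 59.5% of all genes in that fit. In 6 of the 9 tested members both embryonic signals lay above both adult signals, in 1 both lay below, and in 2 the groups overlapped. Over the tested genes with a value on every array the groups did not overlap in 84.1%, with embryonic above in 61.5% and below in 22.6%. Of the other members, Jag2, Dll1, Dll4, Hes1 and Hey1 were each not detected on 1 or more arrays.

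Detection itself differed between the arrays. The adult arrays detected 71.6% and 49.6% of all spots and the embryonic arrays 48.3% and 35.7%. For 1503 sensory receptor probes (smell, taste and pheromone receptors and the like), whose genes are mostly restricted to sensory cells, these shares were 51.3% and 23.2% in adult and 6.12% and 2.26% in embryonic spheres. Jag2, Dll1 and Hes1 were detected on fewer adult than embryonic arrays, the reverse of this order, and Dll4 and Hey1 on fewer embryonic arrays, in the same order. The part of this difference in their values was not tested.

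**Figure D1:**
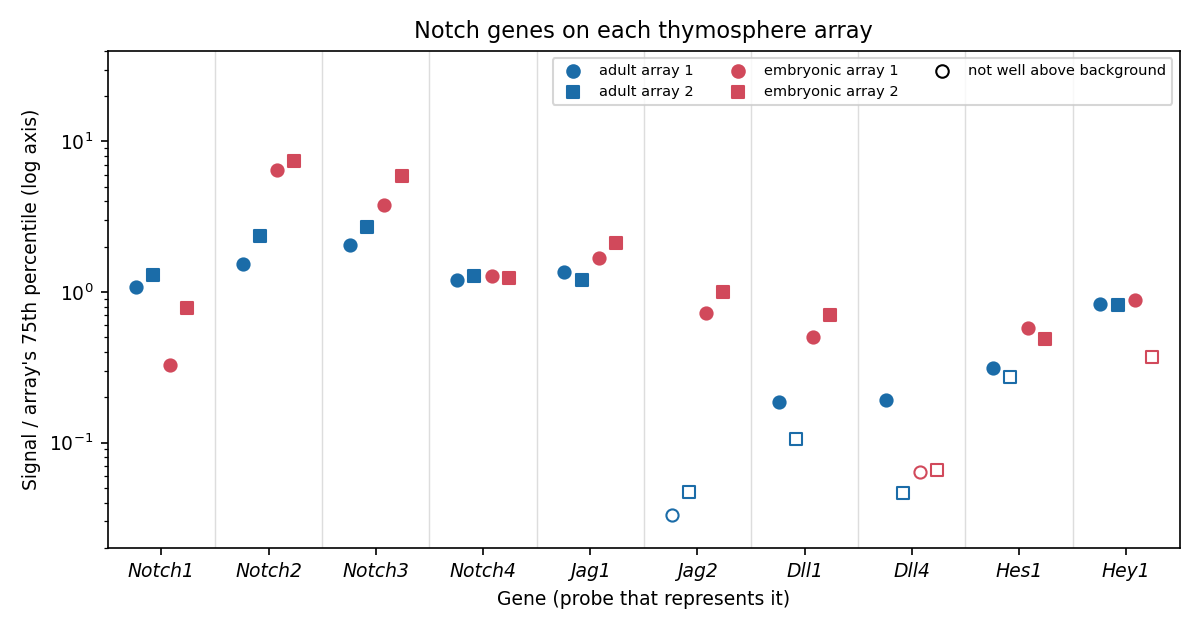
Signal of the probe used for each gene, as a multiple of the array's 75th percentile on a log axis, with 1 point per array (2 adult arrays, 2 embryonic arrays, and open symbols for probes not well above background). The embryonic points of Notch2, Jag2 and Dll1 lie above both adult points, the 4 points of Notch4 lie between 1.21 and 1.27, and Dll4 is filled on adult array 1 alone.

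Among the receptors, Notch2 differed most clearly. It is broadly expressed outside the T lineage. Its signal was 1.54 and 2.36 in adult spheres, against 6.44 and 7.44 in embryonic spheres. Both embryonic values lay well above the higher adult value. The 95% interval of the log2 difference ran from 0.97 to 2.75. A second Notch2 probe was dim and was not tested, with signals of 0.0267 and 0.0877 in adult and 0.0854 and 0.403 in embryonic spheres, and was well above background on embryonic array 2 alone.

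Notch1, the receptor that drives T cell commitment, was lower on both embryonic arrays without passing the test. The signal was 1.09 and 1.29 in adult spheres and 0.326 and 0.785 in embryonic spheres. The groups did not overlap, but the embryonic arrays lay far apart. The log2 difference was -1.23 (SE 0.49, adjusted p = 0.0790 in limma), and its 95% interval ran from -2.45 to -0.00268, just below 0. It passed when only genes detected on every array were fitted (adjusted p = 0.0360) and with an intensity trend in the prior (adjusted p = 0.0320). Without embryonic array 2 it was -1.86 and passed (adjusted p = 0.00261), and without embryonic array 1 it was -0.59 (adjusted p = 0.287). A second Notch1 probe gave no clear pattern, with 0.392 and 0.0502 in adult and 0.140 and 0.0824 in embryonic spheres, and was well above background on 1 array of each group.

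Of 12 listed T lineage genes, the adult arrays detected 10 and 9 and the embryonic arrays 5 and 3, in the order of detection over the whole array. Of 9 tested, 5 were lower in embryonic spheres and none higher, against 17.5% and 36.2% of all tested genes. The 3 tested T lineage genes detected on every array were not called. Cd3e was at 0.85, Cd4 at 0.68 and Lck at 0.73, close to the 0.80 of all tested genes. Cd4 lay below 0 under quantile normalization and in the deposited table. Cd3d and Rag1 were not well above background on any array, and the summed signal of the 12 probes was 10.1 and 10.4 in adult and 10.3 and 12.2 in embryonic spheres. Cd4 alone had 4.47 and 4.32 in adult and 7.00 and 7.09 in embryonic spheres. In bulk RNA, fewer cells of a type and less RNA per cell cannot be told apart, and the part of T cells in the Notch1 values was not tested.

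Notch3, known from mural cells of blood vessels and from early T cells, was brighter in embryonic spheres by a margin that missed the threshold. The signal was 2.06 and 2.68 in adult and 3.75 and 5.91 in embryonic spheres. The groups did not overlap, and the log2 difference was 1.00 (SE 0.37, adjusted p = 0.0674), close to the 0.80 of all tested genes. It passed in the fit of genes detected on every array (adjusted p = 0.0324) and with an intensity trend (adjusted p = 0.0182), as well as without embryonic array 1 (1.33, adjusted p = 0.0218) and not without embryonic array 2 (0.67, adjusted p = 0.216). Of 10 listed smooth muscle and pericyte genes, the adult arrays detected 10 and 7 and the embryonic arrays 6 and 6. Of 8 tested, 3 were higher in embryonic spheres and 3 lower, against 36.2% and 17.5% of all tested genes. Over 9 of the 10 listed genes, those measured on every array, the summed signal was 41.7 and 45.3 in adult and 70.8 and 91.6 in embryonic spheres. Mcam alone had 13.1 and 20.3 in adult and 30.7 and 48.5 in embryonic spheres. The 3 called higher were Mcam, Tagln and Cspg4, and the 3 called lower were Acta2, Cnn1 and Des. Acta2, detected on every array, had 6.79 and 5.38 in adult and 1.87 and 2.63 in embryonic spheres (-1.45, adjusted p = 0.0211). Cnn1 and Des were above background on no embryonic array. The part of smooth muscle and pericytes in the Notch3 values was not tested.

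Notch4, a receptor mostly of blood vessel endothelium, had almost the same signal on all arrays, 1.21 and 1.27 in adult and 1.27 and 1.24 in embryonic spheres. The log2 difference was 0.02 (SE 0.30, adjusted p = 0.967), with a 95% interval from -0.73 to 0.76. Against the shift of all tested genes this made Notch4 relatively lower, and its sign turned under several scalings. Of 10 listed endothelial marker genes, the adult arrays detected 10 and 8 and the embryonic arrays 4 and 2, again in the order of detection over the whole array. Of 8 tested, 5 were lower in embryonic spheres and none higher, against 17.5% and 36.2% of all tested genes. The 5 were each dim on 1 or both embryonic arrays, while Kdr (0.64) and Eng (-0.16), detected on every array, were not called, and their signs turned under other scalings. The summed signal of the 10 was 20.0 and 21.8 in adult and 18.2 and 28.0 in embryonic spheres. Kdr alone had 10.8 and 14.8 in adult and 15.5 and 25.4 in embryonic spheres. The part of endothelium in the Notch4 values was not tested.

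**Figure D2:**
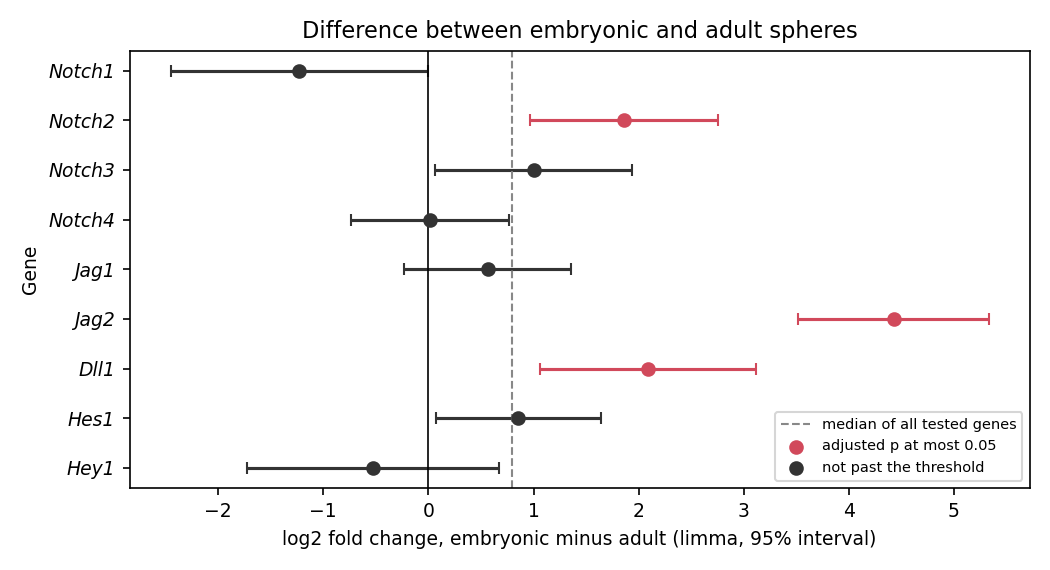
Log2 fold change, embryonic minus adult, of the 9 tested members with its 95% interval from limma (2 arrays in each group). The dashed line is the median of all tested genes, 0.80, and only the intervals of Jag2, Dll1 and Notch2 lie wholly above it. The point of Jag2 is the fitted value, which rests on adult signals at background, and that of Dll1 rests in part on such a signal. The at least 5.44-fold given in the text belongs to this scaling, and normexp correction and the deposited value table gave smaller folds.

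Among the ligands, Jag2 had the largest fitted log2 difference of all members in the scaling used here, one that rests on adult signals at background, while under normexp correction that of Notch2 (1.49) was larger. Jag2 is a Jagged ligand of epithelia and of the embryonic thymus. The adult arrays gave signals of 0.0330 and 0.0473, neither well above background, and the embryonic arrays 0.727 and 0.993. Before scaling, the processed signal was 4.36 and 3.12 in adult and 91.9 and 61.0 in embryonic spheres. The fold of at least 5.44 sets the embryonic mean against the dimmest signals that counted as detected on the adult arrays, 0.121 and 0.201. Undetected probes can lie above these floors, as Hes1 did at 0.273 on adult array 2, so the bound is not strict. Under normexp background correction, which compresses dim signals, the log2 fold change was 1.17 (adjusted p = 0.0400), and it was 2.20 in the deposited value table (adjusted p = 0.000964). Both lie below that bound, which belongs to the scaling used here.

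Dll1, a Delta ligand that can also induce T cell fate in culture, was printed as 10 spots on each array, so its error within an array can be seen. The spots had a median signal of 0.216 on adult array 1 (range 0.0845 to 0.331) and 0.102 on adult array 2 (range 0.0486 to 0.307). On embryonic array 1 the median was 0.511 (range 0.419 to 0.649) and on embryonic array 2 it was 0.738 (range 0.492 to 0.876). After this scaling the dimmest embryonic spot was brighter than the brightest adult spot. Before scaling the spots overlapped, with processed signals up to 43.6 on adult array 1 and from 30.2 on embryonic array 2. All 10 spots were well above background on each embryonic array, against 7 and 2 among the adult spots. The log2 SD between spots was 0.64 and 1.06 in adult against 0.18 and 0.25 in embryonic spheres. Spots of one array share their sample and are no replicates of a group. The mean over spots was 0.186 and 0.106 in adult and 0.506 and 0.705 in embryonic spheres. The call was lost under normexp correction (log2 fold change 0.58, adjusted p = 0.130) and with no filter on dim probes (adjusted p = 0.0532).

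**Figure D3:**
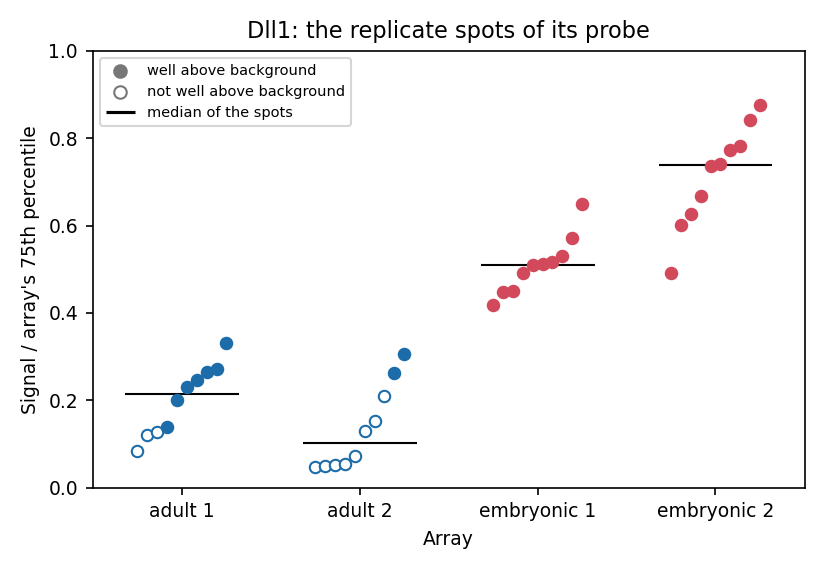
Signal of the 10 spots of the Dll1 probe on each array, as a multiple of the array's 75th percentile, with the median as a line and open circles for spots not well above background. Adult spots reach up to 0.331 and embryonic spots start at 0.419, so the spots of the groups do not overlap in this scaling, though they do before it.

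Jag1, a Jagged ligand of many tissues, was detected on all arrays and did not pass the test. Its signal was 1.36 and 1.20 in adult and 1.69 and 2.10 in embryonic spheres. The groups did not overlap, and the log2 difference of 0.56 (SE 0.32, adjusted p = 0.172) was smaller than the shift of all tested genes.

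Dll4, the ligand through which thymic epithelium directs T cell fate, was at background on 3 of the 4 arrays. Its signal was 0.191 on adult array 1, where it was well above background, and 0.0466, 0.0635 and 0.0653 on adult array 2 and embryonic arrays 1 and 2. It was therefore not tested with the others, and these signals do not show that the transcript was absent. With no filter on dim probes its log2 difference was -0.55 (SE 0.75, adjusted p = 0.615).

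Most tested epithelial markers moved in the direction of Jag2, Dll1 and Notch2. Of 11 listed thymic epithelial genes, the adult arrays detected 11 and 6 and the embryonic arrays 8 and 8. Of 8 tested, 6 were higher in embryonic spheres and none lower, against 36.2% and 17.5% of all tested genes. Ccl25, tested and not called, lay the other way (-1.80). Its signal was 3.68 on adult array 1, with no usable spot on adult array 2, and 1.61 and 0.691 in embryonic spheres. Over 9 of the 11 listed genes, those measured on every array, the summed signal was 46.1 and 25.5 in adult and 147 and 250.2 in embryonic spheres. Most of this sum came from 2 keratin probes. Krt5 had 14.2 and 7.43 in adult and 67.8 and 142.5 in embryonic spheres, and Krt8 25.3 and 15.0 against 58.0 and 82.0. Foxn1, the master regulator of thymic epithelium, was higher by 2.07 (SE 0.43, adjusted p = 0.0156). Its signals were 0.214 and 0.107 in adult and 0.571 and 0.705 in embryonic spheres. Adult array 2 did not show it well above background, so this size rests in part on signal at background. The difference was not called under normexp (0.60, adjusted p = 0.126) or after centring on the tested genes (1.42, adjusted p = 0.0526). Aire and Psmb11, which mark mature epithelium of the medulla and cortex, were detected on adult array 1 alone, as was Ly75. Of 10 tested fibroblast genes 3 were higher and 1 lower, and of 8 tested macrophage and myeloid genes 3 were higher and 1 lower. The part of epithelial or other cell content in the ligand and receptor values was not tested.

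Neither target gene passed the test. Hes1, a repressor that answers Notch signals in most tissues, had signals of 0.315 and 0.273 in adult and 0.579 and 0.484 in embryonic spheres. Both embryonic values were higher, by a log2 difference of 0.85 (SE 0.31, adjusted p = 0.0642) that lay close to the shift of all tested genes. Adult array 2 did not show Hes1 well above background. The call appeared under quantile normalization (1.57, adjusted p = 0.0194) and on centring each array on all its probes (2.07, adjusted p = 0.00259).

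Hey1, a related repressor prominent in blood vessels, had signals of 0.830 and 0.820 in adult and 0.883 and 0.372 in embryonic spheres. Only embryonic array 2 was lower, and it did not show Hey1 well above background. The log2 difference was -0.53 (SE 0.48, adjusted p = 0.370). Without embryonic array 2 it was 0.10, and without embryonic array 1 it was -1.15 (adjusted p = 0.0419), so its direction rested on that 1 array.

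Over the wider pathway, 68 of 70 other listed genes were on the array. Of 54 tested, 26 were higher in embryonic spheres, 6 were lower and 22 did not pass, with a median log2 fold change of 0.99 against 0.80 for all genes. Over all tested genes 36.2% were called higher and 17.5% lower, and these shares also stand beside the counts of each list below. Among the 40 detected on every one of the 4 arrays, 22 were higher and none lower, where 43.8% of all such genes were called higher and 2.35% lower. All 6 lower genes were dim in embryonic spheres, 5 on both embryonic arrays and 1 on 1 of them. After centring on the tested genes 9 of the 54 were higher and 8 lower, against 7.66% and 20.3% of all tested genes. The list was chosen by role, and no test was made of it as a whole.

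**Figure D4:**
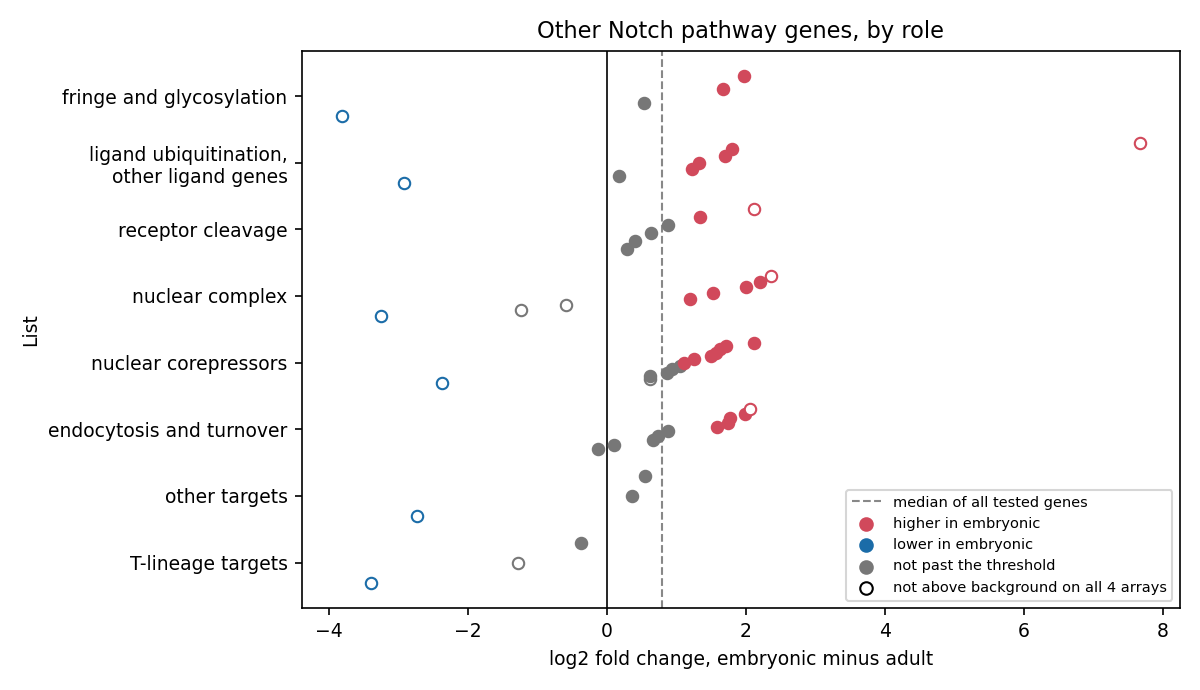
Log2 fold change, embryonic minus adult, of the 54 tested pathway genes in 8 lists by role, with open circles for genes not well above background on all 4 arrays and a dashed line at the median of all tested genes, 0.80. The 6 genes called lower are all open, and Dlk1 lies far to the right at 7.67.

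Fringe and sugar-adding enzymes act on the receptors before they reach the surface and tune which ligand they answer. Pofut1 and Poglut1, which add the first sugars to Notch, were both higher in embryonic spheres, Pofut1 no longer after centring on the tested genes (1.01, adjusted p = 0.0938) or under quantile normalization (0.89, adjusted p = 0.120). Pofut1 had signals of 1.85 and 2.54 in adult and 7.83 and 6.07 in embryonic spheres (log2 fold change 1.67, SE 0.35, adjusted p = 0.0153), and Poglut1 0.440 and 0.297 against 1.21 and 1.68 (1.98, SE 0.37, adjusted p = 0.0128). Mfng, manic fringe, was the reverse, with 1.29 and 0.919 in adult spheres and no embryonic array above background, and the adult level was at least 5.90-fold higher (adjusted p = 0.00728). This and the other bounded folds of pathway genes belong to the scaling used here, and under normexp the log2 fold change of Mfng was -1.15 (adjusted p = 0.0414). A second Mfng probe lay in the same direction, with 0.465 and 0.408 against 0.126 and 0.0811. The second Pofut1 probe was detected on array 1 of each group and not tested, with 0.251 and 0.0868 in adult and 0.162 and 0.0618 in embryonic spheres. Rfng, radical fringe, did not pass (0.54, SE 0.32, adjusted p = 0.184), and Lfng, lunatic fringe, was detected on array 1 of each group and was not tested.

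Among ligand-related genes, 5 of 7 tested were higher and 1 lower. One of the higher ones, the ubiquitin ligase gene Neurl1b, singled out after its values were seen, had probes in opposite directions, and the mean of both was not called (-0.65, adjusted p = 0.169). The probe used had signals of 12.0 and 20.7 in adult and 31.0 and 50.9 in embryonic spheres, and the other 0.428 and 0.424 against 0.0590 and 0.0794. Dlk1, an imprinted Delta-like protein that lacks the domain by which ligands bind Notch, had signals of 0.338 and 0.263 in adult and 154 and 24.1 in embryonic spheres (7.67, SE 0.87, adjusted p = 0.00729). The embryonic arrays differed widely in it but both lay far above the adult ones, of which 1 showed it above background. Its relative Dlk2 was higher as well (1.80, SE 0.41, adjusted p = 0.0188), though no longer after centring on the tested genes. Dll3, a Delta-like protein that stays inside the cell, had signals of 0.302 and 0.536 in adult spheres and 0.0247 and 0.115 in embryonic spheres, neither of the latter well above background, so its size of change is not given (adjusted p = 0.0274). The call was lost under normexp (adjusted p = 0.213), under quantile normalization (adjusted p = 0.158) and in the deposited table (adjusted p = 0.171). Its other, untested probe had 0.133 and 0.0821 in adult and 0.295 and 0.242 in embryonic spheres.

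In the nuclear complex, 5 of 8 tested genes were higher and 1 lower. Rbpj, which encodes the DNA-binding partner of all Notch receptors, was higher by 2.21 (SE 0.36, adjusted p = 0.0102) on the probe used, with signals of 0.645 and 0.816 against 2.75 and 4.12. Its other probe went the opposite way, with 3.05 for adult array 1, no usable spot on the other adult array, and 0.621 and 1.38 in embryonic spheres, and the mean of both was not called (0.72, adjusted p = 0.221). The acetyltransferase gene Kat2b had an embryonic level at least 2.93-fold higher (adjusted p = 0.0358), with smaller values under normexp (log2 0.59, adjusted p = 0.222) and without adult array 1 (log2 1.32), and no call after centring on the tested genes (adjusted p = 0.155). Rbpjl, a paralogue of Rbpj that does not bind Notch, was brighter in adult spheres, where it was at least 4.59-fold higher (adjusted p = 0.00915), and was not called under normexp (-0.80, adjusted p = 0.0842).

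Of 13 corepressor genes tested, which hold Notch targets silent when no signal arrives, 7 were higher and 1 lower. Ncor1 (2.13, SE 0.36, adjusted p = 0.0108) and Spen (1.72, SE 0.33, adjusted p = 0.0135) were among the higher ones, and Tle4 was lower (-2.37, SE 0.59, adjusted p = 0.0230). Spen was not called after centring on the tested genes (1.06, adjusted p = 0.0746), nor Tle4 under normexp (-0.60, adjusted p = 0.182), under quantile normalization (adjusted p = 0.231) or in the deposited table (-0.78, adjusted p = 0.167). Tle4's other probe, detected on no array and not tested, had 0.0691 and 0.0493 in adult and 0.119 and 0.125 in embryonic spheres. Of its 3 probes Ncor1 had 1 that went slightly the other way, with 0.243 and 0.433 in adult and 0.172 and 0.251 in embryonic spheres, and the mean over its probes was not called (0.88, adjusted p = 0.0798). In receptor cleavage 2 of 6 tested genes were higher, the gamma-secretase subunit gene Aph1b (2.12, SE 0.41, adjusted p = 0.0133) and Adam10, the protease that makes the first cut (1.34, SE 0.34, adjusted p = 0.0236). The call of Adam10 was lost after centring. Adult array 2 did not show Aph1b well above background, with signals of 0.203 and 0.118 in adult and 0.568 and 0.795 in embryonic spheres. Of 10 genes of endocytosis and turnover 5 were higher, among them the ubiquitin ligase genes Nedd4 (1.99, SE 0.31, adjusted p = 0.00961) and Cbl, at least 3.93-fold higher (adjusted p = 0.0112). Under normexp neither Aph1b (0.75, adjusted p = 0.0866) nor Cbl (0.66, adjusted p = 0.112) was called.

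Further targets were mostly undetected. Hes2, Hes3, Hey2 and Nrarp were not well above background on any array, and Hes5 was so on adult array 1 alone. Hes6 (0.55, SE 0.31, adjusted p = 0.165) and Hes7 (0.37, SE 0.31, adjusted p = 0.329) were measured on all arrays and did not pass. Heyl, a target known from mural cells, had signals of 0.566 and 0.518 in adult spheres and no embryonic array above background, and the adult level was at least 2.93-fold higher (adjusted p = 0.00729), with no call under normexp (-0.76, adjusted p = 0.0755). Among targets that Notch drives in T cell progenitors, Il2ra and Tcf7 were not well above background anywhere, and Gata3 (-0.37, SE 0.40, adjusted p = 0.444) and Bcl11b (-1.28, SE 0.45, adjusted p = 0.0591) did not pass. Ptcra, the pre-T cell receptor alpha gene, which also stands among the T lineage markers, was brighter in adult spheres, where it was at least 2.82-fold higher (adjusted p = 0.0110), and was not called under normexp (-0.85, adjusted p = 0.0582).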

How the data were processed

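Per the labels' protocols, spheres were collected on day 7, and Cy3-labelled material from 25 ng of RNA went onto 1-colour Agilent arrays. Groups come from the sample titles. Per the file headers, the deposited intensity of each spot was background-subtracted and detrended within the array by Feature Extraction (10.7.3.1 in the submitters' processing notes). The deposited value table also holds intensity, on a linear scale, with medians of 34.4, 35.0, 35.7 and 35.1. The labels used here do not give its normalization, and its centring is unknown. It correlated best with the median spot signal of its own array (0.994 to 0.998).

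Log2 of the processed signal was centred on the array's 75th percentile over all spots that are no controls (132, 66.0, 126 and 61.5). Outlier spots were left out afterwards (185, 2756, 120 and 95), and no spot was saturated. Spots of a probe were averaged. Names come from RefSeq (GRCm38.p6): 28026 probes (50.3%) matched. Probes well above background on both arrays of a group were tested, with the brightest representing a gene, in limma 3.58.1 (R 4.3.3). The fit was tested on simulated data. A bounded fold sets the bright group's mean against the mean of floors of the dim arrays, each being the lowest detected signal or, if brighter, that of the probe. Named genes are the members, up to 2 called genes per direction of each pathway list, and all tested fringe and further target genes. Single marker genes, Neurl1b, Gata3 and Bcl11b were named after their values were seen. Members, lists and tests were chosen with earlier results of these data known. Normexp used the median spot signal (offset 50), since the files hold no mean. Alternatives varied background, scaling, filter, probe choice, prior, block and left-out arrays.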

Additional observations from a re-analysis of the deposited data

How the results depend on the processing

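Jag2 was called in 15 of 17 alternatives, Notch2 in 13 of 18 and Dll1 in 13 of 17, each time as higher in embryonic spheres, and none of them changed sign. The number of Notch members called was 3, and it was 7 when arrays were centred on the median of all probes, 1 with no filter on dim probes and 5 with an intensity trend in eBayes. It ranged from 0 to 5 when 1 array was left out. Of the pathway genes 32 were called, 19 under normexp, 18 under quantile normalization, 17 after centring on the tested genes and 10 with no filter, with 0 to 34 when 1 array was left out. Of all genes 7329 were called, 3349 under normexp, 4857 under quantile normalization, 11507 with the median of all probes, 3821 after centring on the tested genes and 2544 with no filter, with 0 to 7563 when 1 array was left out. Without adult array 1 or 2 no gene was called in limma, although 6453 and 5526 had an unadjusted p under 0.05. A lone array was assumed to vary like the other group. Of all calls 33.7% were higher with no filter and 94.3% when signal was asked on all 4 arrays, against 67.4%. The replicate block called 3 members, 33 pathway genes and 7039 genes in all. Over genes, the differences between replicates correlated at 0.07 between the groups, a value that a shift of a whole array does not change. Arrays of the same number were alike in raw brightness. Their 75th percentile was 132 and 126 for the arrays numbered 1, against 66.0 and 61.5 for those numbered 2. Whether arrays of the same number belong together is not known.

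Of the 32 called pathway genes 2 turned their sign in an alternative, Dll3, which another probe represents with no filter (1.35), and Neurl1b with the mean of its probes (-0.65). Foxn1, also called, kept its sign in those run. Among those not called, Notch4 was -0.18 under normexp, -0.29 under quantile normalization, -0.64 after centring on the tested genes, -0.33 in the deposited table, -0.13 with the percentile over spots that are no outliers, and between -0.024 and 0.055 when 1 array was left out. Rfng was -0.29 under quantile normalization, -0.11 after centring on the tested genes and -0.20 in the deposited table. Hes6 was -0.090, -0.10 and -0.062 under the same 3 settings, and Hes7 -0.14, -0.29 and -0.29, with -0.045 under normexp. Cd4 was -0.15 under quantile normalization and -0.080 in the deposited table, and Kdr -0.16 and -0.26 there and -0.015 after centring on the tested genes. With the median of all probes Gata3 was 0.85 and Eng 1.06. Jag1 was -0.095 after centring on the tested genes. Hey1 was 0.69 with the median of all probes and from -1.15 to 0.10 when 1 array was left out. The causes were not tested. The percentile without outlier spots and a linear mean of spots were added after seeing the data.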
